A study of Homo sapiens with 414 samples.

Results

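Among 401 single cells of LNCaP, an androgen-responsive line derived from a human prostate carcinoma, 192 had received an siRNA against SULT2B1, and these knockdown cells were divided by whether they held reads of an interferon gene. A producer had at least 1 read of IFNB1 or IFNL1, and a non-producer had 0 reads of both. By this rule 46 of the 192 knockdown cells were producers and 146 were non-producers. The classes were chosen by the measured reads of IFNB1 and IFNL1, so these are described here and not tested. The remaining 209 cells, transfected with a non-targeting siRNA, were the control.

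The series compared LNCaP cells carrying the labels Sult2B1b knockdown (SULT2B1 siRNA from IDT) and control (non-targeting siRNA from Dharmacon), all harvested 48 h after transfection. SULT2B1 encodes a sulfotransferase that adds sulfate to cholesterol and related sterols. Living single cells were captured on Fluidigm C1 plates and their RNA was sequenced, with both arms present in each of 3 batches. The knockdown rests on 1 siRNA, whose supplier differed from that of the control siRNA, so the loss of SULT2B1 and a response to that siRNA molecule cannot be told apart between the arms; producers and non-producers received the same siRNA. Reads were summed over the cells of a class in each batch, and the 3 batches served as replicates. The labels do not say that batches were separate cultures, so the p-values reflect only how far batches differed, possibly for technical reasons.

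Cells make interferon when sensors in the cytosol, RIGI and IFIH1 among them, bind double-stranded RNA and signal through the adaptor MAVS and the kinase TBK1 to the transcription factors IRF3 and NF-kB. These factors act at the IFNB1 and IFNL1 promoters and also, without any interferon, at genes such as the IFIT family and CXCL10. Secreted interferon beta or lambda then binds its receptor on the same or neighbouring cells, and JAK kinases and STAT proteins switch on a broad set of antiviral genes.

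The promoters of both class genes and of CXCL10, the gene with the smallest p-value in the comparison below, are shown because IRF and NF-kB factors are known to act on all of them. Each window runs from 250 bases before to 50 bases after the gene's start, 5′ to 3′ on the gene's strand (RefSeq, GRCh38.p14). Capitals mark matches, on either strand, to GAAA, any 2 bases, then GAAA (here the GAAA pair), a pattern of the kind that IRF factors bind, or to the NF-kB consensus.
IFNB1, chr9:21077893-21078192, minus strand: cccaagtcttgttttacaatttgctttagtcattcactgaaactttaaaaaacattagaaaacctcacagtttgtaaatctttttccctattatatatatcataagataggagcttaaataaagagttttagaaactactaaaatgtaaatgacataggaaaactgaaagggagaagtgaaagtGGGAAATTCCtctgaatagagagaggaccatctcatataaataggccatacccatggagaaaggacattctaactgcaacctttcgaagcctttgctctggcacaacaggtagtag
IFNL1, chr19:39296157-39296456, plus strand: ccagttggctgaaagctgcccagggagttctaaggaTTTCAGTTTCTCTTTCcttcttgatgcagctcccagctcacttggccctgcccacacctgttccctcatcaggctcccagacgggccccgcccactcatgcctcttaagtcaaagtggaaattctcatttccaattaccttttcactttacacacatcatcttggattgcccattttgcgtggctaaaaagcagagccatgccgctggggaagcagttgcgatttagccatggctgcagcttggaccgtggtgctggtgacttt
CXCL10, chr4:76023448-76023747, minus strand: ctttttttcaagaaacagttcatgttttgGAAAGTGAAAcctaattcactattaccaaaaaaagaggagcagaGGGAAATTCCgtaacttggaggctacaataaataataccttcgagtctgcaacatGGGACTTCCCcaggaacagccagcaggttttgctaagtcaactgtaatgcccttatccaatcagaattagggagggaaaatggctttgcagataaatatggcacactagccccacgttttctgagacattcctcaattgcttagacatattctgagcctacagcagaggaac
The IFNB1 window held an NF-kB match at -66 to -57 from the start and no match to the GAAA pair. In the IFNL1 window, 2 matches to the GAAA pair on the opposite strand overlapped, from -214 to -199. CXCL10 had a GAAA pair at -221 to -212 and NF-kB matches at -177 to -168 and -122 to -113. The windows of CXCL8 and RAET1L, which also passed in the comparison below, are not shown and held no match to either pattern. Of 35116 such windows over all genes, 3.57% held the GAAA pair, 11.3% the NF-kB consensus and 0.276% both. A match describes letters in the window and does not show that a factor was bound. Of 19 genes looked up by symbol, a window was found for 15, whether or not it held a pattern.

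Interferon reads were spread unevenly over the producers. Batch 1 had 13 producers of 66 knockdown cells (19.7%, exact Clopper-Pearson 95% interval 10.9 to 31.3), batch 2 had 8 of 65 (12.3%, 5.47 to 22.8) and batch 3 had 25 of 61 (40.98%, 28.6 to 54.3). Batch 3 thus held the highest share, and its interval overlapped that of batch 1 and not that of batch 2; the intervals cover counting error only. Reads of IFNL1 alone were found in 26 producers, of IFNB1 alone in 7 and of both in 13. The number of interferon reads was 1 in 12 producers, 2 to 4 in 9 and 5 or more in 25, of which 8 cells had at least 100.

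In each batch most interferon reads came from a single cell. The top cell had 3326 reads in batch 1, 1892 in batch 2 and 9048 in batch 3, which was 79.4%, 77.8% and 93.6% of the interferon reads of its batch, while the median producer had 2, 66 and 9 reads. These 3 cells expressed both genes at once, with 2027, 1270 and 2346 reads of IFNB1 and 1299, 622 and 6702 of IFNL1. They had 677993, 334303 and 1342654 reads in all; the batch 2 cell had the lowest total among the producers.

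**Figure D1:**
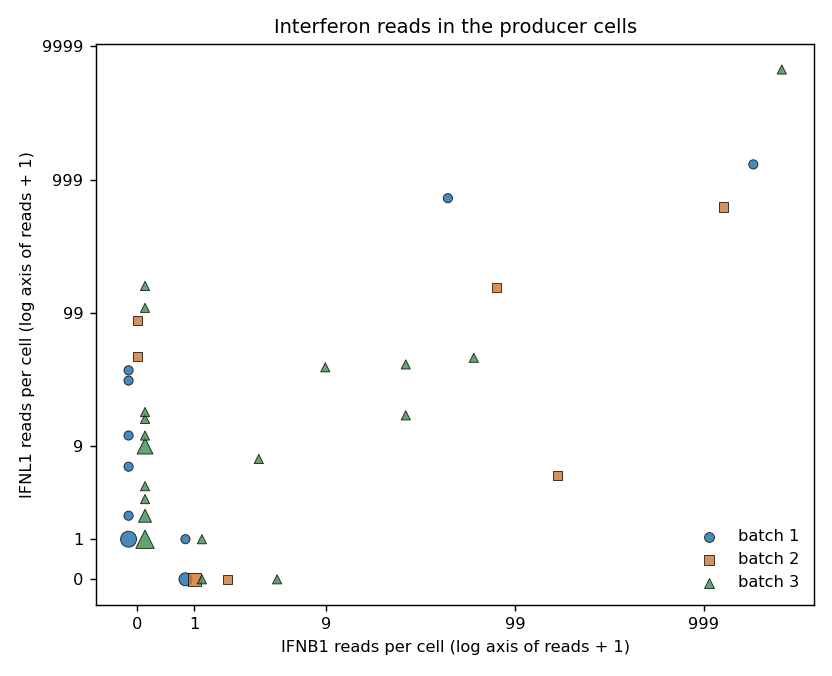
Reads of IFNB1 (horizontal) and IFNL1 (vertical) in each of the 46 producer cells, on log axes of reads + 1; colour and symbol give the batch, symbols of the batches are shifted slightly sideways, and a larger symbol stands for several cells at the same values. The 3 cells at the upper right, with 3326, 1892 and 9048 reads, are the top cells of their batches, and 26 cells lie on the left edge with IFNL1 reads only.

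Reads of the near-identical lambda genes IFNL2 and IFNL3 followed the class. IFNL2 had 2584 reads in 12 producers and 23 reads in 6 non-producers, and IFNL3 had 2465 reads in 12 producers and 4 reads in 3 non-producers. Read counting can divide reads among these copies and IFNL1, so IFNL2 and IFNL3 were left out of the tests with the class genes. IFNL4, which lies beside IFNL3, had 57 reads in producers and 0 in non-producers, at least 55.5-fold higher with 3 counts over all non-producers as the floor. In control cells IFNB1 had no read in 209 cells (upper limit of the share with a read 1.44%), and IFNL1 had 11 reads in 2 cells.

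Producers were not evenly placed on the plate in batch 3. Of the 17 knockdown cells there whose position code carries the letter A or B, 14 were producers, against 11 of 44 with the letters C to H. The same letters held 2 of 15 and 2 of 20 cells that were producers in batches 1 and 2, against 11 of 51 and 6 of 45 elsewhere. The part of position, and of reads carried between libraries, in cells with few interferon reads was not tested.

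Depth and RNA quality came first. Median reads per cell were 1260874, 870626 and 1485814 in the producers of batches 1, 2 and 3 and 1204240, 1110745 and 1368728 in the non-producers, a mean difference of -22133 (SD 191186, n = 3 batches; exact paired permutation test, two-sided, p = 1, with 0.25 the smallest p it allows). Median genes with a read differed by -136 (exact p = 0.5) and the median mitochondrial share by -0.679 percentage points (exact p = 0.25), lower in producers in each batch; 0 producers and 8 non-producers exceeded 20% mitochondrial reads. The summed libraries differed more: producers had 15770785, 6823238 and 37048390 reads and non-producers 62126244, 64806870 and 47310654. SULT2B1 itself had 1, 0 and 0 reads in producers, 12, 21 and 0 in non-producers and 152, 109 and 332 in control. The luminal marker KRT8 was present in both classes, at 79.95 ± 11.7 CPM (reads scaled to a library total of 1000000) in producers and 83.1 ± 12.9 in non-producers (SD, n = 3). Of the 12 blood cell and endothelial markers listed, 2 had enough reads to be tested and neither passed; PTPRC, the pan-leukocyte marker, had 0, 0 and 1 reads in producers, CD14 had 0 reads in every library, and PECAM1, the endothelial marker, had 49, 0 and 0 reads in producers.

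Producers had higher levels of the chemokine genes CXCL10 and CXCL8 and of RAET1L, which encodes a ligand of the NKG2D receptor of natural killer cells. These 3 of 17588 genes tested (0.0171%) passed an adjusted p of 0.05 in edgeR's quasi-likelihood test with batch as a block, all of them higher; none passed as lower. At an unadjusted p under 0.05, 422 genes were higher (2.399%) and 453 lower (2.58%), and 1524 genes (8.66%) were higher and 3472 (19.7%) lower in producers in all 3 batches. The median log2 fold change over all genes tested was -0.15. DESeq2 called 390 genes (2.22%), 239 higher (1.36%) and 151 lower (0.859%).

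CXCL10 (ENSG00000169245), whose product draws T cells and natural killer cells through CXCR3, stood at 2872, 1531 and 2580.3 CPM in producers of batches 1, 2 and 3. Non-producers had 7.77, 5.26 and 4.65 CPM, and control libraries 0.705, 2.14 and 0. Producers exceeded non-producers in every batch with no overlap, by 8.68 on the log2 scale (SE 0.232; edgeR adjusted p = 0.00326). The largest producer cell gave 52.4%, 54.02% and 56.7% of the CXCL10 reads of its batch.

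RAET1L (ENSG00000155918) was nearly silent in control cells, where it had a single read. Its level was 302, 456 and 108 CPM in producers and 6.55, 11.4 and 2.64 CPM in non-producers. The classes did not overlap, and the difference was 5.48 on the log2 scale (SE 0.209; edgeR adjusted p = 0.00751).

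CXCL8 (ENSG00000169429), a neutrophil chemokine and NF-kB target, varied more between batches. Producers had 10.97, 269.8 and 5.86 CPM and non-producers 0.145, 4.03 and 0.0634, so the non-producers of batch 2 came close to the producers of batch 3. Within batches the difference was 6.30 on the log2 scale (SE 0.353; edgeR adjusted p = 0.03695). It rested on few cells: 1 cell gave 96.4% of the producer reads in batch 2 and 1 cell gave 98.1% of the non-producer reads there.

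The 3 calls depended on the cells with the most interferon reads to different degrees. Without the top interferon cell of each batch CXCL8 no longer passed in edgeR (log2 3.69, adjusted p = 0.9995), whereas CXCL10 (8.24, adjusted p = 0.000414) and RAET1L (5.40, adjusted p = 0.0252) did. When all 8 cells with 100 or more interferon reads were left out, a setting chosen after the data were seen, 0 of 17187 genes passed in edgeR (667 at an unadjusted p under 0.05) and the log2 differences were 7.86 for CXCL10, 4.93 for RAET1L and 3.55 for CXCL8 (adjusted p = 0.393, 0.839 and 1). Leaving out batch 2 ended the calls of RAET1L (adjusted p = 0.116) and CXCL8 (adjusted p = 1), and leaving out batch 3 did so too (adjusted p = 0.0874 and 0.203).

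**Figure D2:**
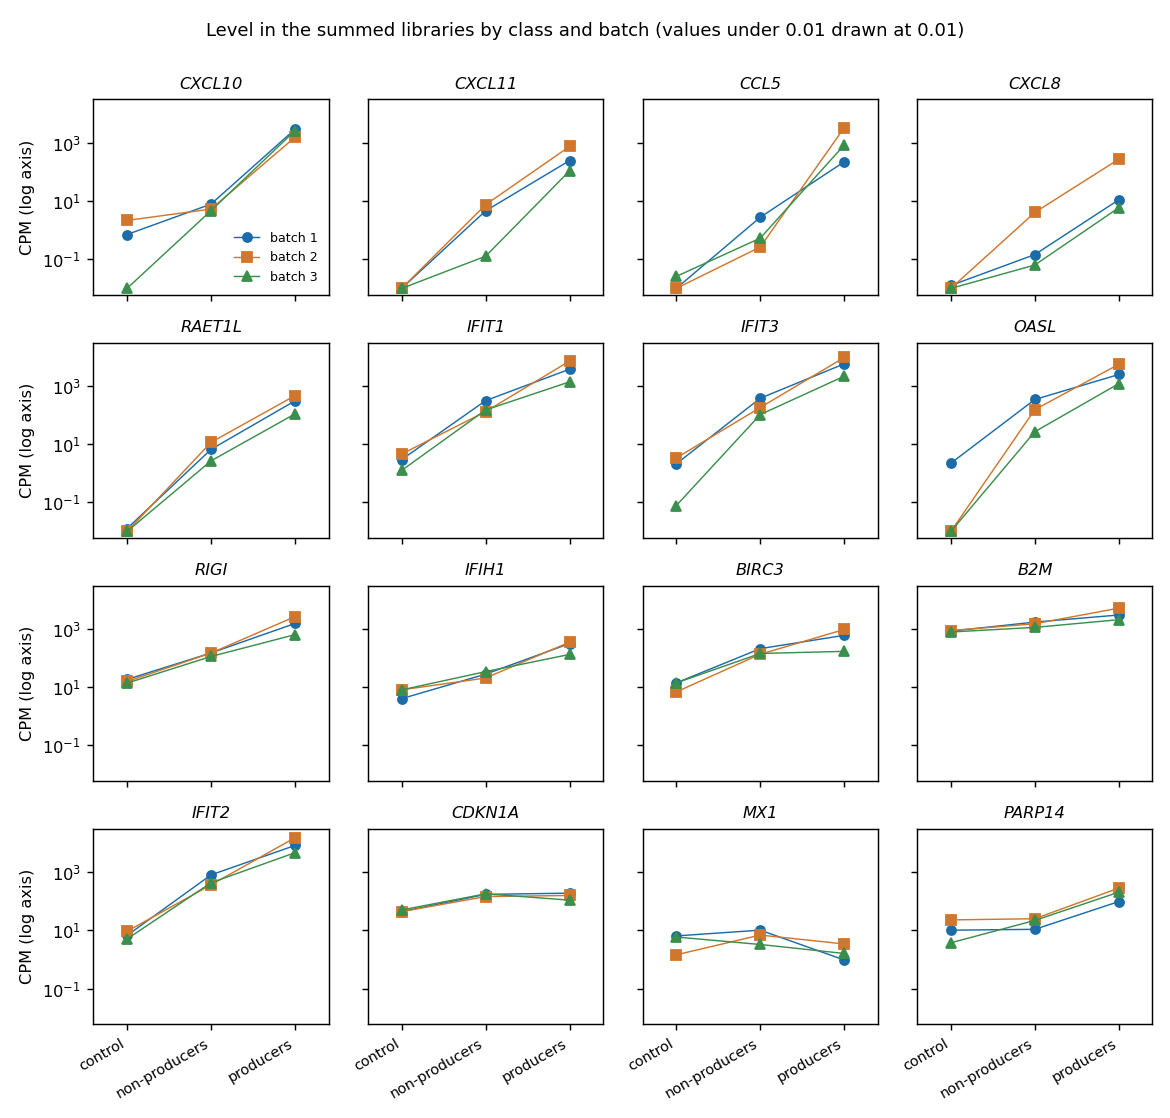
CPM (log axis, values under 0.01 drawn at 0.01) of 16 genes in the summed libraries of control cells, non-producers and producers, with a line for each of the 3 batches. CXCL10 and RAET1L lie higher in producers than in non-producers in every batch, and IFIT1, IFIT3 and OASL step up from control to non-producers and again to producers.

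The 6 genes next in rank among those higher in all 3 batches did not pass. PARP14, an ADP-ribosyltransferase of the interferon response, had 95.8, 278 and 201 CPM in producers and 10.7, 24.7 and 21.6 in non-producers (log2 3.37, adjusted p = 0.107). SMIM31, which encodes a small membrane protein, had 57.1, 91.3 and 51.9 against 2.69, 3.97 and 2.52 CPM (log2 4.51, adjusted p = 0.166). The guanylate-binding protein genes GBP1 and GBP5, both interferon-inducible GTPases, followed: GBP1 had a log2 difference of 2.76 (adjusted p = 0.197), and GBP5 had 1234 reads in producers against 3 in non-producers, a ratio of 1202 with a counting interval of 410.2 to 5835 (adjusted p = 0.241). Counting intervals, here and below, cover counting error of the summed reads only and leave out the spread between cells and batches. EXT1, a heparan sulfate polymerase, differed by 5.17 (adjusted p = 0.241), with 90.5%, 98.6% and 95.98% of its producer reads in 1 cell per batch.

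Most genes of the antiviral response had higher levels in producers, and no single member passed. Of 50 listed interferon-stimulated antiviral genes 49 were tested and 0 passed in edgeR, but 34 were higher and 0 lower at an unadjusted p under 0.05, and 34 were higher in all 3 batches. Over all genes tested, 2.399% were higher and 2.58% lower at that threshold, and 8.66% were higher in all 3 batches. The same shares stand beside the counts of the lists that follow in this comparison. The antiviral genes had a median log2 difference of 2.26, against -0.15 for all genes tested. DESeq2 called 33 of them, all higher (1.36% of all genes), and 12 passed with equal weight per cell (0.0967% of all genes).

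The IFIT genes, whose products bind viral RNA or block its translation, were among them. IFIT2 stood at 8042, 14834 and 4536 CPM in producers and 787, 359 and 423 in non-producers (log2 4.09, adjusted p = 0.491). IFIT3 had 5608, 9262 and 2114 CPM against 371, 178 and 102 (log2 4.73, adjusted p = 0.241), and IFIT1 had 3679, 7014 and 1354 against 307, 129 and 147 (log2 4.21, adjusted p = 0.605). For these 3 genes every producer library lay above every non-producer library. OASL, related to the oligoadenylate synthetases, showed the same order with 2417, 5408 and 1176 against 336, 151 and 26.4 CPM (log2 4.62).

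Further members are named here after their values were seen. RSAD2, which encodes viperin, had 355, 679 and 88.7 CPM in producers against 9.66, 2.36 and 6.11 in non-producers, and no read in control cells. OAS1 differed by 3.05 on the log2 scale, the ubiquitin-like modifier ISG15 by 2.85 and IFI6 by 1.91. MX1, a GTPase commonly taken as a marker of interferon exposure, had lower values in producers, without passing: producers had 0.951, 3.37 and 1.59 CPM and non-producers 10.01, 6.805 and 3.23, a log2 difference of -1.68 (SE 1.03, adjusted p = 0.995). Of its 3 producer values, 1 lay within the non-producer range and 2 below it. Detection as deposited had the other sign: MX1 had a read in 16 of 46 producers and 37 of 146 non-producers (16.7 points, higher in 3 of 3 batches; exact paired permutation p = 0.25), and 3.26 points after thinning to 100000 reads (2 of 3 batches).

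The sensors RIGI and IFIH1 had higher levels in producers, though neither passed. RIGI stood at 1518, 2611 and 629 CPM against 148, 147 and 112 (log2 3.41, adjusted p = 0.408), and IFIH1 at 312, 348 and 132 against 27.8, 20.5 and 33.9 (log2 3.27, adjusted p = 0.631). The classes did not overlap for either gene. The adaptor MAVS differed by -0.04 (SE 0.285), the kinase TBK1 by 0.44 (SE 0.325) and the sensor kinase EIF2AK2 by 0.19 (SE 0.276). Of the 11 sensors and adaptors tested, 2 were higher and 1 lower at an unadjusted p under 0.05 (median 0.19). Among 12 IRF factors and their kinases the count was 1 higher and 2 lower (median -0.20), and this median was above 0 in 3 alternatives (0.22 with equal weight per cell, 0.05 with a class limit of 5 reads and 0.20 after thinning).

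In the receptor and JAK-STAT list, 3 of 10 members were higher and 0 lower at that threshold (median 0.60). STAT2 differed by 1.19 (adjusted p = 0.942), STAT3 by 0.26 and the interferon receptor subunit IFNAR1 by -0.33. JAK1, a kinase shared by both interferon receptors, was named after its values were seen. It had 7.799, 49.2 and 4.97 CPM in producers and 2.61, 5.69 and 8.24 in non-producers, with overlap (log2 1.43, adjusted p = 0.995). IFNLR1, the specific subunit of the lambda receptor, had 0 reads in producers and control cells and at most 0.0309 CPM in non-producers.

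Chemokine genes included 2 of the 3 that passed. Of 16 chemokine and cytokine genes tested, CXCL10 and CXCL8 passed, and 7 were higher with 0 lower at an unadjusted p under 0.05. The median was 2.18, but 0.40 with equal weight per cell and 0.83 with a class limit of 5 reads. CCL3, named after its values were seen, is among the 7 and had 157 reads in producers and 0 in non-producers. The count of 0 lower covers tested genes only, and some listed genes, named likewise, did not enter the test. IL1B, IL12A, CCL2 and IL7 had 291, 214, 159 and 97 reads in non-producers and 0, 0, 0 and 1 in producers. TNFSF13B, IL6 and CCL4 had 34, 24 and 9 reads in producers and 0 in non-producers. CCL5, which attracts T cells, had 219.9, 3261 and 822 CPM in producers against 2.75, 0.262 and 0.528 in non-producers (log2 10.21, SE 1.88, adjusted p = 0.885), with 48.99%, 88.9% and 89.9% of the producer reads in 1 cell per batch. CXCL11, named after its values were seen, had 242, 741 and 108 against 4.57, 7.41 and 0.127 CPM (log2 7.09, adjusted p = 0.408). CXCL9, named likewise, differed by 7.79, but its producer level was 0, 2.64 and 81.5 CPM. TNFSF10, the gene of the death ligand TRAIL and also named after its values were seen, differed by 4.29 (adjusted p = 0.995).

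NF-kB targets and regulators had 6 of 21 members higher and 0 lower at that threshold (median 0.85). SOD2, the mitochondrial superoxide dismutase, had 432, 1383 and 113 CPM in producers and 70.1, 63.8 and 51.95 in non-producers (log2 2.79, adjusted p = 0.995). BIRC3, an inhibitor of apoptosis, differed by 1.60 and NFKBIA, the inhibitor of NF-kB, by 1.04 (both adjusted p = 0.995). NFKBIZ, named after its values were seen, had 163, 530.1 and 48.5 against 9.83, 12.8 and 15.8 CPM (log2 3.81).

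Other ligands of NKG2D, which cells display under stress, were measured beside RAET1L. Of 7 NKG2D ligand genes tested, 3 were higher at an unadjusted p under 0.05 (median 0.91) and RAET1L alone passed after adjustment. RAET1G, named after its values were seen, had 5.14, 12.5 and 8.04 CPM in producers and 0.596, 0.247 and 0.127 in non-producers (log2 5.01, adjusted p = 0.995). MICA differed by 0.91 and ULBP2 by -1.01. RAET1L and RAET1G are close copies of each other, and reads can be divided among them in counting.

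Genes of antigen presentation had smaller differences that mostly pointed the same way. Of 18 HLA class I and peptide-loading genes, 13 were higher in producers in all 3 batches and 0 lower. Over all genes tested, 8.66% were higher and 19.7% lower in all 3 batches. At an unadjusted p under 0.05, 5 of the 18 were higher (median 1.09), against 2.399% of all genes. B2M, the light chain of HLA class I, stood at 2965, 5089.96 and 2047 CPM against 1693, 1483 and 1115 (log2 1.23, adjusted p = 0.942). PSME2, a subunit of the proteasome activator, differed by 0.54 and the peptide-loading factor TAPBP by 0.33.

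Most death and p53 genes did not reach an unadjusted p under 0.05 in edgeR. Over all genes tested, 2.399% were higher and 2.58% lower at that threshold. The median log2 difference was 0.00 for 19 death receptor and cell death genes (3 higher, 0 lower at an unadjusted p under 0.05) and 0.15 for 13 BCL2 family genes (2 higher, 0 lower). FAS, the death receptor, had 189, 264 and 133 CPM in producers and 80.8, 94.5 and 68.5 in non-producers without overlap (log2 1.30, adjusted p = 0.867), and PMAIP1, which encodes the BH3-only protein NOXA, had 695, 1303 and 214 against 198, 120.1 and 94.1 (log2 2.20, adjusted p = 0.995). MCL1 differed by 0.60. For 20 p53 targets the median was -0.15 (0 higher, 2 lower), with MDM2 at 0.22 (SE 0.129) and, named after its values were seen, CDKN1A at -0.07 (SE 0.265).

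For 20 S phase genes the median was -0.36 (1 higher, 0 lower) and for 20 G2 and mitosis genes -0.50 (0 higher, 0 lower), with PCNA at -0.74 (SE 0.371) and CCNB1 at -0.26 (SE 0.497). The medians of both depended on the setting. With equal weight per cell they were 0.14 and 0.17 (0.00 for all genes), so the sign of both turned, whereas they were -1.44 and -1.21 with a class limit of 5 reads (-0.37 for all genes) and -1.06 and -0.96 after thinning (-0.23 for all genes). The median was -0.30 for 19 stress genes tested, -0.31 for 19 androgen response and luminal genes and -0.34 for 13 mitochondrially encoded genes. In the same order, 0 members of each list were higher and 2, 1 and 1 lower at an unadjusted p under 0.05. In all 3 batches 10 of the mitochondrial genes were lower. The mitochondrial share of a cell is computed from reads of mitochondrially encoded genes, so its lower median in producers is not a separate observation. The 12 RNA interference genes had a median of -0.06, with the RNA-editing enzyme ADAR at 0.97 (SE 0.207) and TNRC6B at -0.34. The 14 sterol sulfation and cholesterol genes tested had a median of 0.09. The 5 basal, neuroendocrine and mesenchymal markers tested had a median of -0.36.

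**Figure D3:**
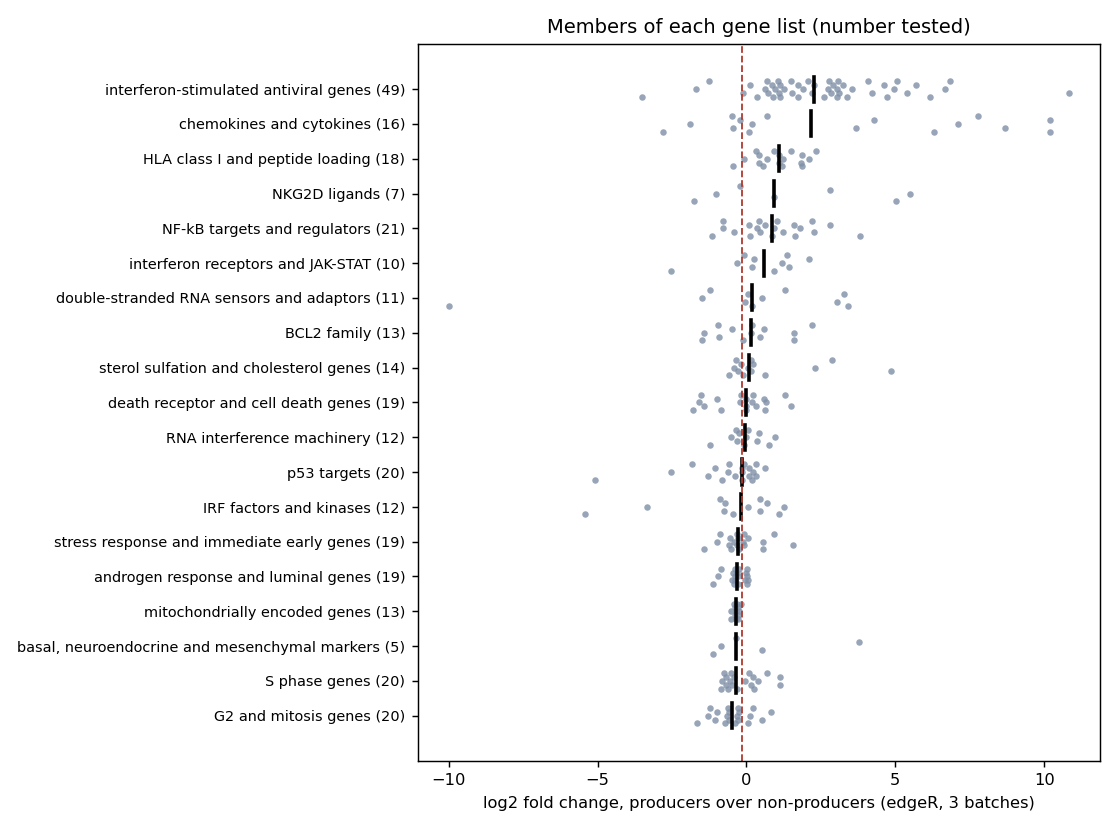
Log2 fold change of producers over non-producers (horizontal) for each tested member (points) of the gene lists with at least 5 tested members, with the list's median as a black bar and the median of all genes tested, -0.15, as a dashed line. The antiviral and chemokine lists have medians of 2.26 and 2.18 (1.62 and 0.40 with equal weight per cell), and the p53, S phase and G2 and mitosis lists lie at -0.15, -0.36 and -0.50.

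The medians of other lists also moved with the setting. With equal weight per cell, a class limit of 5 reads and thinning to 100000 reads, the median was 1.62, 3.07 and 3.16 for the antiviral genes, 0.70, 2.25 and 1.88 for the NKG2D ligands, 0.61, 1.14 and 1.48 for the NF-kB list and 0.62, 1.38 and 1.25 for the HLA class I list. It was 0.63, 0.95 and 0.69 for the receptor and JAK-STAT list and 0.35, 0.35 and 0.56 for the sensors and adaptors. These 6 medians were above 0 in each of the 3 alternatives. The median of the death receptor and cell death genes was 0.38, -0.37 and 0.29 in the same order, that of the BCL2 family 0.41, 0.01 and -0.05, that of the RNA interference genes 0.21, -0.10 and -0.12 and that of the sterol genes 0.22, 0.08 and -0.21, so no direction is given for these lists. The p53 targets stood at -0.25, -0.38 and -0.41 and the stress genes at -0.22, -0.56 and -0.25. The androgen response and luminal genes stood at -0.23, -0.16 and -0.15 and the mitochondrially encoded genes at -0.21, -0.22 and -0.08. For all genes tested the median was 0.00, -0.37 and -0.23. With a limit of 5 reads and after thinning, the androgen and mitochondrial medians thus lay above that of all genes. The basal, neuroendocrine and mesenchymal markers tested in each setting stood at 0.00, -0.72 and -1.29.

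No gene passed as lower in producers in edgeR, with 453 lower at an unadjusted p under 0.05 and 151 called lower by DESeq2. The 6 with the smallest p-values among those lower in all 3 batches were HERPUD1, SLC38A1, KLHL13, MAP9, MAP1A and TP53INP1, with adjusted p from 0.594 to 0.942. HERPUD1, which acts in degradation at the endoplasmic reticulum, had 251, 339 and 338 CPM in producers and 514, 642 and 654 in non-producers (log2 -0.89, SE 0.135). SLC38A1, a glutamine transporter, had 53.2, 45.9 and 99.9 against 166, 132 and 187 (log2 -1.28, SE 0.233), and TP53INP1, a p53 target, 362, 282 and 411 against 641, 732 and 584 (log2 -0.82, SE 0.168). The microtubule-associated gene MAP9 differed by -1.12. KLHL13 and MAP1A were low throughout: KLHL13 had 0, 0 and 0.297 CPM in producers and 6.31, 12.3 and 18.9 in non-producers, and MAP1A had 1236 reads in non-producers and 3 in producers, a ratio of 141 with a counting interval of 48.1 to 685. HSPA5, a chaperone of the same stress list as HERPUD1, differed by -0.43 (SE 0.141).

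Response genes were detected in more producers than non-producers, and most were also present in non-producers. CXCL8 had a read in 3 of 13, 2 of 8 and 7 of 25 producers and in 1 of 53, 4 of 57 and 1 of 36 non-producers, a mean difference of 21.5 percentage points (higher in 3 of 3 batches; exact paired permutation test, two-sided, p = 0.25, the smallest it allows). RAET1L was detected in 26 of 46 producers and 42 of 146 non-producers (28.9 points, 3 of 3 batches). RSAD2 was detected in 28 producers and 28 non-producers (45.4 points, 3 of 3 batches), and CXCL11 in 22 and 21 (40.4 points, 3 of 3 batches). CXCL10 was found in 32 of 46 producers and 64 of 146 non-producers, but in batch 1 in 8 of 13 and 33 of 53, so that the share was higher in 2 of 3 batches (23.5 points, exact p = 0.5). Control cells had 4 cells with CXCL10, 1 with RAET1L, 1 with CXCL8 and 0 with RSAD2 or CXCL11 among 209; for the last, a count of 0 allows a share of up to 1.44%.

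IFIT2, RIGI, IFIT1 and IFIT3 were detected in most cells of both classes. IFIT2 had a read in 45 of 46 producers and 138 of 146 non-producers, and in 24 of 209 control cells. RIGI had a read in 44 and 125, IFIT1 in 41 and 120, IFIT3 in 42 and 120, and OASL in 34 and 84. PARP14 was found in 35 of 46 producers and 64 of 146 non-producers (34.7 points, 3 of 3 batches), and CCL5 in 21 and 30 (21.8 points, 3 of 3 batches). With every cell thinned to 100000 reads, the mean difference in the share with IFIT3 was 30.5 points, against 9.44 points as deposited (higher in 3 of 3 batches in both).

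**Figure D4:**
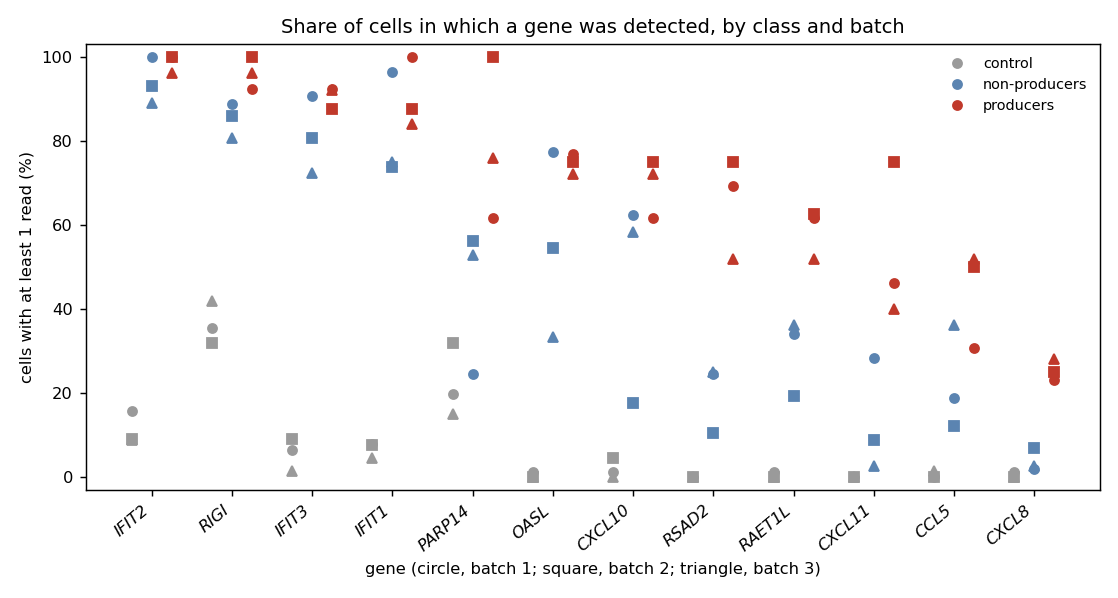
Share of cells with at least 1 read of each gene (vertical, percent) in control cells, non-producers and producers, with a symbol for each of the 3 batches. RSAD2, RAET1L, CXCL11, CCL5 and CXCL8 lie higher in producers than in non-producers of the same batch in all 3 batches, whereas IFIT2 and RIGI were found in over 80% of cells in every batch of both classes.

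Detection of response genes was also laid out by the number of interferon reads. Next to the limit of the rule, CXCL10 was detected in 64 of 146 cells with 0 interferon reads and 5 of 12 cells with 1 read, against 6 of 9 cells with 2 to 4 reads, 13 of 17 with 5 to 99 and 8 of 8 with 100 or more. The median CXCL10 level was 0, 0, 2.598, 1.72 and 3757 CPM in the same order. The highest level in any cell was 191, 3.61, 356, 40342 and 30055 CPM. GBP5 was found in 2 of 146, 0 of 12, 2 of 9, 4 of 17 and 4 of 8 cells in the same order. RSAD2 was found in 28 of 146, 6 of 12, 3 of 9, 11 of 17 and 8 of 8 cells.

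The median IFIT3 level was 2.85 CPM in cells with 0 interferon reads and 15.1, 5.26, 26.9 and 16227 CPM in cells with 1, 2 to 4, 5 to 99 and 100 or more. Single cells overlapped widely: the highest IFIT3 level was 8094 CPM among non-producers, and the lowest was 1309 CPM among the 8 cells with 100 or more reads. RIGI had medians of 24.6, 49.5, 7.59, 345 and 3516 CPM in the same order. MX1 had a median of 0 in the first 4 classes and of 0.357 CPM in the last. Of the 50 antiviral genes, the median cell had reads of 23 with 0 interferon reads, 25 with 1, 26 with 2 to 4, 27 with 5 to 99 and 37 with 100 or more, and the median control cell had reads of 11. These classes were cut by interferon reads and are a description.

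**Figure D5:**
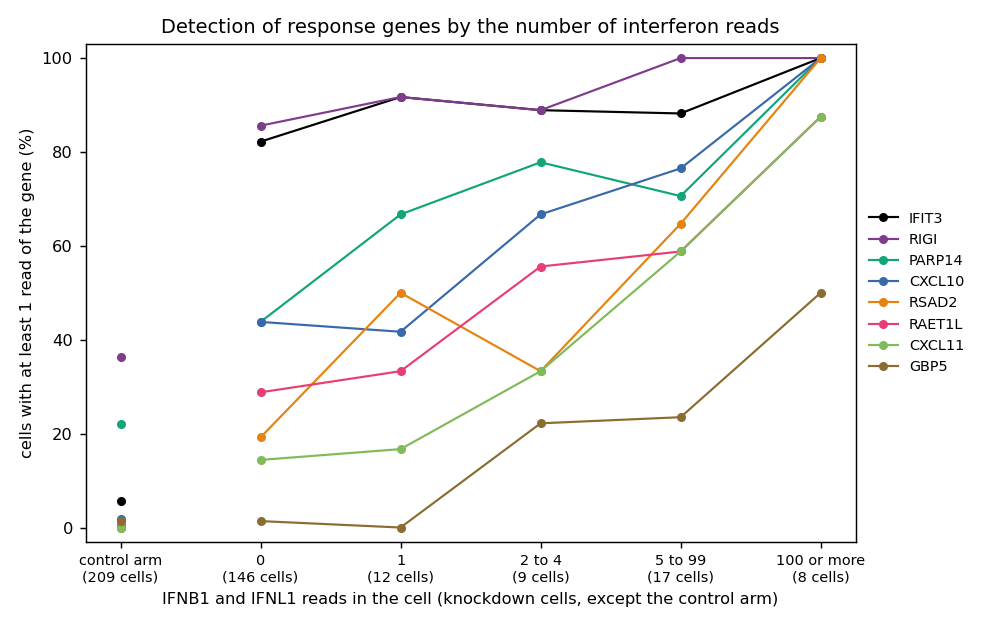
Share of cells with at least 1 read of 8 genes (vertical, percent) in control cells and in knockdown cells with 0, 1, 2 to 4, 5 to 99 and 100 or more reads of IFNB1 and IFNL1 (horizontal; 209, 146, 12, 9, 17 and 8 cells). IFIT3 and RIGI were found in over 80% of knockdown cells at every step, and GBP5 was found in 2 of 146 cells with 0 interferon reads and 4 of 8 with 100 or more.

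Non-producers were also compared with control cells, to place the level of response genes in knockdown cells without interferon reads. IFIT2, RIGI and BIRC3 had levels well above control there, although no gene passed in edgeR. With batch as a block 0 of 19744 genes passed (0%), while 982 were higher (4.97%) and 1284 lower (6.503%) at an unadjusted p under 0.05 and 3992 were higher (20.2%) and 3104 lower (15.7%) in all 3 batches. DESeq2 called 1494 genes (7.57%), 577 higher (2.92%) and 917 lower (4.64%). IFIT2 had 787, 359 and 423 CPM in non-producers against 6.57, 9.15 and 4.99 in control (log2 6.14, SE 0.3803, adjusted p = 0.06801), RIGI 148, 147 and 112 against 18.3, 15.6 and 13.7 (log2 3.03, adjusted p = 0.0602) and BIRC3 208, 134 and 142 against 13.9, 6.83 and 13.9 (log2 3.78, adjusted p = 0.06801). None of these values overlapped between the groups.

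This comparison shares the non-producer libraries with the one above. IFIT1 had a log2 difference of 6.08 here and 4.21 there, IFIT3 one of 7.32 and 4.73, and CXCL10 one of 3.80 (adjusted p = 0.525) and 8.68. RSAD2 had 1042 reads in non-producers and 0 in control, at least 459.6-fold higher with the floor at 3 counts over all control cells, and RAET1L had 1268 against 1, a ratio of 1678 with a counting interval of 301 to 66325. Of 43 antiviral genes tested, 27 were higher and 0 lower at an unadjusted p under 0.05 (median 1.97, against -0.02 for all genes).

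Lists of p53 and cell cycle genes had large counts here. Of 20 p53 targets, 16 were higher and 0 lower at an unadjusted p under 0.05 (median 0.92); CDKN1A, the p53 target that halts the cell cycle, had 169, 142 and 176 CPM in non-producers and 43.3, 43.3 and 49.2 in control (log2 1.77, adjusted p = 0.0977), and PMAIP1 differed by 1.84 (adjusted p = 0.0977). Among 20 S phase genes 15 were lower and 0 higher (median -1.08), and among 20 G2 and mitosis genes 15 were lower and 0 higher (median -1.74). Control cells had 35 cells over 20% mitochondrial reads and non-producers 8. In summed libraries alone, fewer cells with a transcript and less RNA per cell cannot be told apart. As a mean over batches, CDK1 had a read in 68.01% of non-producers and 90.3% of control cells. For the S phase gene RRM1 the shares were 96.98% and 93.7%.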

How the data were processed

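Per the labels, single LNCaP cells were captured on Fluidigm C1 plates, capture sites with no or several cells and cells stained as dead were excluded, and libraries were sequenced on an Illumina HiSeq2500. The deposited values are counts, whole reads of each gene in each cell, without molecular identifiers. The submitters' processing notes name the build GRCh38.p3 and, with no roles, HTSeq 0.6.1, edgeR 3.2.2, TopHat2 2.1.0 and FastQC 0.11.3. The annotation and strand setting are not given there. Of 405 value columns, 401 were used, and 4 were not used. Of 36135 Ensembl identifiers, 34891 were named through a gene name table and 257 through GENCODE 29.

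Within a batch, the counts of each class were added up. The quasi-likelihood test of edgeR 4.0.16 (robust, with TMM scaling and filterByExpr; R 4.3.3 and limma 3.58.1) was run with batch as a block and Benjamini-Hochberg adjustment over all genes tested; every adjusted p is from this test unless another tool is named. The test was also run on simulated counts drawn without batch effects and without single cells that dominate a sum. That run does not cover these features of the data. IFNB1, IFNL1, IFNL2 and IFNL3 were left out. The labels' word Batch pairs the libraries. The deviations of same-numbered libraries correlated at 0.0504, 0.0398 and 0.0183. Per the labels, knockdown cells G12 and H12 of batch 1 were repeated in the sequencing of batch 2, and they were counted in batch 1. Cell G12 was a producer with 11 reads of IFNL1. CPM are reads scaled to a library total of 1000000. Shares and quality measures were compared per batch by exact paired permutation tests, with Clopper-Pearson intervals at 95%. DESeq2 1.42.0 and the alternatives of the closing section were fitted beside the main test in R. Sums, shares and figures were made in Python 3.11.15 with pandas 2.3.3, scipy 1.17.1, matplotlib 3.10.9 and numpy 2.4.6.

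Named genes are SULT2B1, the interferon genes, up to 12 passing genes in each direction with the same direction in all 3 batches and at least 5 CPM, otherwise the next 6, and up to 4 members of each list; others are marked as named after their values were seen, and some members are not reported here. The members, the lists and the rule were chosen with earlier results of these data known.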

Additional observations from a re-analysis of the deposited data

How the results depend on the processing

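Over the alternatives, the count of genes passing between producers and non-producers was 3 as reported and stayed at 3 with RLE scaling and without cells over 20% mitochondrial reads, with 2 passing without the top interferon cell of each batch. It was 390 with DESeq2, 5 with no filter on low counts, 6 with a class limit of 5 reads, 43 with every cell thinned to 100000 reads, 17 with equal weight per cell, 1 with all 9 summed libraries in the fit and 0 without the producers that had 100 or more interferon reads. Leaving out 1 batch gave between 1 and 8 genes (8 without batch 1, 2 without batch 2 and 1 without batch 3). Without the replicate block 1 gene passed, CXCL10 (adjusted p = 0.000888), while RAET1L (0.369) and CXCL8 (0.686) did not. RAET1L and CXCL8 also missed with equal weight per cell (0.0517 and 0.119), CXCL10 and CXCL8 with all 9 libraries (0.278 and 0.192), and CXCL8 after thinning (0.224). The count of antiviral genes higher at an unadjusted p under 0.05 stayed between 32 and 38 of 44 to 50 tested over every alternative. Between non-producers and control, 0 genes passed as reported, 1494 with DESeq2, 1254 with equal weight per cell, 173 after thinning, 74 without the replicate block, 17 with no filter and 3 with all 9 libraries, and 0 without any 1 batch. The median of all genes moved from -0.15 to 0.00 with equal weight per cell and to -0.42 with no filter.

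The log2 difference changed sign for EIF2AK2 (between -0.14, without batch 3, and 0.43), MAVS (between -0.21 and, without batch 3, 0.15, and 0.15 with a limit of 5 reads), CCNB1 (0.07 without the replicate block, between -0.74 and, without batch 2, 0.41 over the batches left out, 0.17 with equal weight per cell and 0.01 with all 9 libraries), CDKN1A (between -0.29 and, without batch 3, 0.24, 0.08 with a limit of 5 reads, 0.10 after thinning and 0.12 with equal weight per cell) and JAK1 (-0.44 without the cells with 100 or more interferon reads, added after the data were seen). The causes of these changes were not tested. In the class with 8 to 25 cells per batch, 1 cell can set a summed level, and 12 of the 46 producers rest on 1 read, so that a cell with few transcripts of IFNB1 or IFNL1 may stand in either class at this depth.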
